A study of Mus musculus with 2 samples.

Results

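Gene expression of the MHC class II genes H2-Aa, H2-Ab1, H2-Eb1, Cd74, H2-DMa, H2-DMb1, H2-Oa and H2-Ob and of their transactivator gene Ciita was examined in mouse haematopoietic stem and progenitor cells. These 9 genes were chosen by name, out of 19057 genes on the array, and every probe that the platform annotation assigned to 1 of these symbols alone was used, 16 of 45281 probes. Both samples were Flt3-low LSK cells, that is lineage-negative cells with Sca1 and c-Kit on their surface, from mouse, measured on Illumina bead arrays. One sample is labelled control and the other has the genotype written CA/CA. The series describes transgenic mice that express constitutively active IKK2, a kinase of the NF-kB pathway, in haematopoietic stem cells. The promoter or Cre that drives the transgene, the strain, age and sex of the mice, the number of mice per sample and the alleles of the control are all not given in the sources used. With 1 array for each genotype there is no replicate error and nothing was tested, and every difference holds for these 2 samples.

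MHC class II molecules are pairs of an alpha and a beta chain that carry peptides to the cell surface for CD4+ T cells. Cd74, the invariant chain, accompanies new class II molecules to endosomes and keeps their groove closed, the DM heterodimer (H2-DMa with H2-DMb1 or its close copy H2-DMb2) loads and edits the peptides, and the DO heterodimer (H2-Oa with H2-Ob) inhibits DM. CIITA, which does not bind DNA itself, is recruited to the promoters of these genes by RFX, CREB and NF-Y proteins on the X and Y boxes, and its own gene is active in B cells and dendritic cells and is inducible by interferon gamma in many other cells. DO is known to be made mainly by B cells and by some dendritic and thymic epithelial cells.

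The promoter stretches are shown because 5 of the class II genes share a pair of promoter letters that was defined from these windows. Of these, H2-Eb1 and H2-Aa were higher in CA/CA, and H2-DMb1, H2-Oa and H2-Ob were lower. RefSeq promoter windows of assembly GRCm38.p6, 250 bases before to 50 bases after the annotated start, were examined for 6 of the 9 genes, with H2-DMa having 2 windows. Any window of Cd74 was left out of the search, and none was examined for H2-Ab1 or Ciita. The motif counts below therefore leave these genes out. The lines give bases -110 to -31 of each gene's own strand. Capitals mark the letters GNAAC, the middle of the X box, and the Y box ATTGG that follows on the same strand after 22 to 32 bases. The reference sequence is that of C57BL/6J mice.
H2-Eb1, chr17:34305757-34305836, plus strand: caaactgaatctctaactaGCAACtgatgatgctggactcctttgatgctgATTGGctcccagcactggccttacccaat
H2-Aa, chr17:34287854-34287933, minus strand: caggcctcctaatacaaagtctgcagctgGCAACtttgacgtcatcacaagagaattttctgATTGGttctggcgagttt
H2-DMb1, chr17:34153081-34153160, plus strand: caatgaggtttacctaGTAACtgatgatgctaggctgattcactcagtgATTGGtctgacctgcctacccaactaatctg
H2-Oa, chr17:34092269-34092348, plus strand: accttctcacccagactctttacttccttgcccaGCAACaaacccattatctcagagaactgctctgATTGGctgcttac
H2-Ob, chr17:34238795-34238874, plus strand: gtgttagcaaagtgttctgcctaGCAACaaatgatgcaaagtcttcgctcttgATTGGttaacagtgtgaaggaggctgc

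This pair of letters, defined after the windows had been read, was present on either strand in 5 of the 6 genes and in 1.87% of 32851 RefSeq promoter windows of the same length. Because it was fitted to these windows, its count in these genes gives no support. The pair was absent from the 2 annotated windows of H2-DMa. Whether either window holds the H2-DMa promoter used in these cells was not examined, so H2-DMa cannot be said to lack it. The pattern planned beforehand was a longer X box, which overlaps GNAAC, followed by ATTGG after 8 to 30 bases. It was found in H2-DMb1 and H2-Ob, both lower in CA/CA, and in 0.125% of all windows. H2-Eb1 and H2-Aa, both higher in CA/CA, did not hold it. The Y box letters alone were in all 6 genes and in 37.4% of all windows. The pattern TTCNNNGAA of a gamma-activated site was in 0 of the 7 windows and in 8.3% of all, and a loose NF-kB site pattern was in 4 of the 6 genes, H2-Aa, H2-DMa, H2-Eb1 and H2-Oa, and in 50.8% of all. The patterns are matches of letters and no binding was measured. As given next, H2-Eb1 and H2-Aa were higher in CA/CA cells, while H2-DMb1, H2-Oa and H2-Ob, with the same pair of letters, were lower.

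The peptide-binding chains and the invariant chain were higher in CA/CA cells, and the DO chains were lower. H2-DMa and H2-DMb1 were slightly lower, by differences that cannot be told from array to array variation. H2-DMb2, a DM chain not among the 9 genes, was at -0.06. Of the 9 genes, H2-Eb1, H2-Ab1 and Cd74, or 3 genes, reached a 2-fold higher value in CA/CA, as did 1.29% of the 10140 measured genes. H2-Ob alone, 1 gene, reached a 2-fold lower value, as did 1.64%. This call rests on 1 probe just past the limit, and at an offset of 50 in place of 16 it was lost, with 0 genes 2-fold lower and H2-Ob at -0.88. H2-DMa, H2-DMb1 and H2-Oa lay within 2-fold, and H2-Aa and Ciita, seen only in CA/CA, had lower bounds under 2-fold and no upper limit. A gene was counted as measured where at least 1 probe was above a background floor of 91.92 signal units on at least 1 array, and differences are on the log2(signal + 16) scale, CA/CA minus control. The median over the 9 genes was 0.32, with genes seen on 1 array only at their lower bound, or 0.42 with their measured values, beside 0.00 over all measured genes. The 9 values ran from -1.05 to 2.62, and the median of a list that spans 0 in this way describes neither group of chains.

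The 3 peptide-binding chains were higher in CA/CA. H2-Eb1, the beta chain of the E molecule, went from 120 signal units (control) to 817 (CA/CA) with its 1 probe. This is a log2 difference of 2.62, and it ranked 7 of the 10140 genes from the highest difference. On this array the control signal of H2-Eb1 was not far above the background, which lay near 81.69 units and had not been subtracted. With that background subtracted from both values the ratio was 19.4.

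H2-Ab1, the beta chain of the A molecule, was measured by 3 probes. Their signals were 237, 281 and 389 on the control array and 819, 1267 and 1373 on the other. All 3 were higher in CA/CA, with log2 differences of 1.72, 2.11 and 1.78 in the same order, so each passed 2-fold on its own. Their mean, 1.87, ranked 33 from the highest. H2-Aa, the alpha chain that pairs with it, gave 86.5 units (control, under the floor) against 185 (CA/CA). It was therefore at least 1.86-fold higher, a bound of 0.89 on the log2 scale, and its 1 probe gives no upper limit to the difference. With no offset the bound was 1.01 and with the background mode subtracted 2.18, both past 2-fold.

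Cd74 differed by about as much as the beta chains on 2 of its 3 probes. Probe ILMN_3089584 went from 237 units (control) to 1356 (CA/CA) and probe ILMN_1221817 from 292 to 1669, log2 differences of 2.44 and 2.45. The remaining probe, ILMN_1247832, was dim, with 86.0 units (control, under the floor) against 142 (CA/CA), at least 1.47-fold higher. All 3 probes were higher in CA/CA, and their mean measured difference was 1.84. The gap between the dim probe and the others shows how far 1 gene's probes can lie apart here. Over 3868 genes with several measured probes, the SD of the differences between probes of 1 gene was 0.24 on the log2 scale, which measures probe error and not variation between samples.

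**Figure D1:**
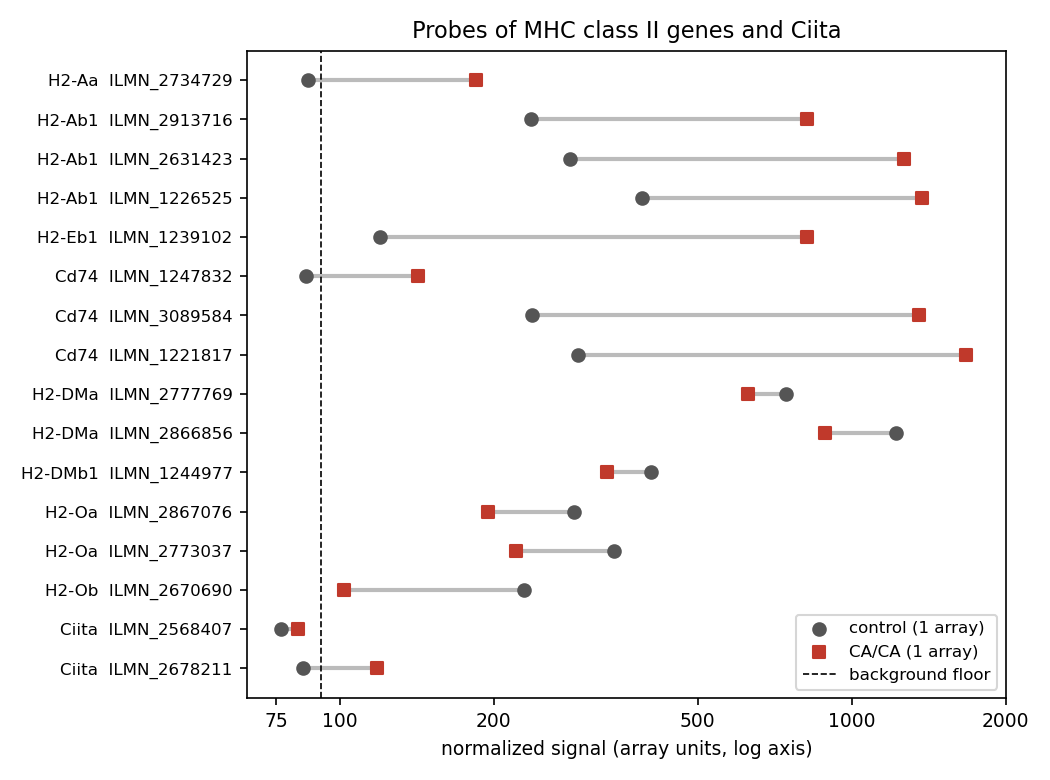
Normalized signal of the 16 probes in the control sample (circles) and the CA/CA sample (squares), 1 array each, on a log axis, with the background floor of 91.92 units as a dashed line. The probes of H2-Aa, H2-Ab1, H2-Eb1, Cd74 and Ciita are higher in CA/CA, and the 6 probes of the DM and DO chains are lower.

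The DM chains were slightly lower in CA/CA. H2-DMa had 2 probes, with 745 and 1219 units on the control array against 626 and 887 on the CA/CA array. Both were lower in CA/CA, by -0.24 and -0.45 on the log2 scale. The 1 probe of H2-DMb1 gave 405 units (control) against 332 (CA/CA), a difference of -0.27. These differences are close to the SD between probes of 1 gene, and with 1 array per genotype a difference of this size cannot be told from array to array variation. H2-DMb2, the copy of H2-DMb1 next to it, had signals of 257 and 237, and its 2 probes differed by -0.16 and 0.03. The probe sequences were not used here, so how far the probes of these 2 close copies bind both transcripts is not known.

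The DO chains were lower by more. H2-Oa had 2 probes, with 286 and 343 units on the control array against 195 and 221 on the CA/CA array. Both were lower, by -0.52 and -0.60, and the probes lay closer to each other than the SD between probes of 1 gene. The 1 probe of H2-Ob gave 229 units (control) against 102 (CA/CA), a difference of -1.05. In CA/CA its signal was thus only slightly above the floor, and it ranked 138 of 10140 from the lowest difference. With the background subtracted the control signal of H2-Ob was 7.23 times that of CA/CA.

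Ciita was near the limit of detection on both arrays. Probe ILMN_2678211 gave 84.6 units (control, under the floor) against 118 (CA/CA), at least 1.25-fold higher. With the background mode subtracted its bound was 1.01 on the log2 scale, past 2-fold. Probe ILMN_2568407, which the annotation ties to a different transcript record, was below the floor on both arrays, at 76.8 and 82.7. Ciita has several promoters in mouse, and which of its transcripts each probe detects was not examined. The call of Ciita as higher thus rests on 1 dim probe.

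The 4 peptide-binding and invariant chain genes and the 4 DM and DO genes did not overlap in their differences. The former ran from 0.89 to 2.62 with a median of 1.86, and the latter from -1.05 to -0.27 with a median of -0.45. The value of 0.89 is the bound of H2-Aa, which passed the floor in CA/CA alone, and this fixes its direction. Of the 10140 measured genes, 5164 lay above 0 and 4972 below. Among them H2-Aa, at its bound, ranked 163 from the highest difference, and H2-DMb1, at -0.27, ranked 1622 from the lowest. The genes were grouped by role with earlier results of these data known, so the separation of the 2 groups gives no support. Over all 8516 genes above the floor on both arrays, 95% of the differences lay between -0.89 and 0.74. H2-Ab1, H2-Eb1 and Cd74 lay above that range and H2-Ob below it, while H2-DMa, H2-DMb1 and H2-Oa lay inside it. By probe, 9 of 15 measured probes were higher and 6 lower, and 6 reached 2-fold higher, against 1.31% of 15819 named and measured probes, while 1 reached 2-fold lower, against 1.82%. Among the higher probes, those of H2-Aa and Ciita and the dim Cd74 probe passed the floor in CA/CA alone, which fixes their direction. All probes that stood for the same gene had the same sign.

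**Figure D2:**
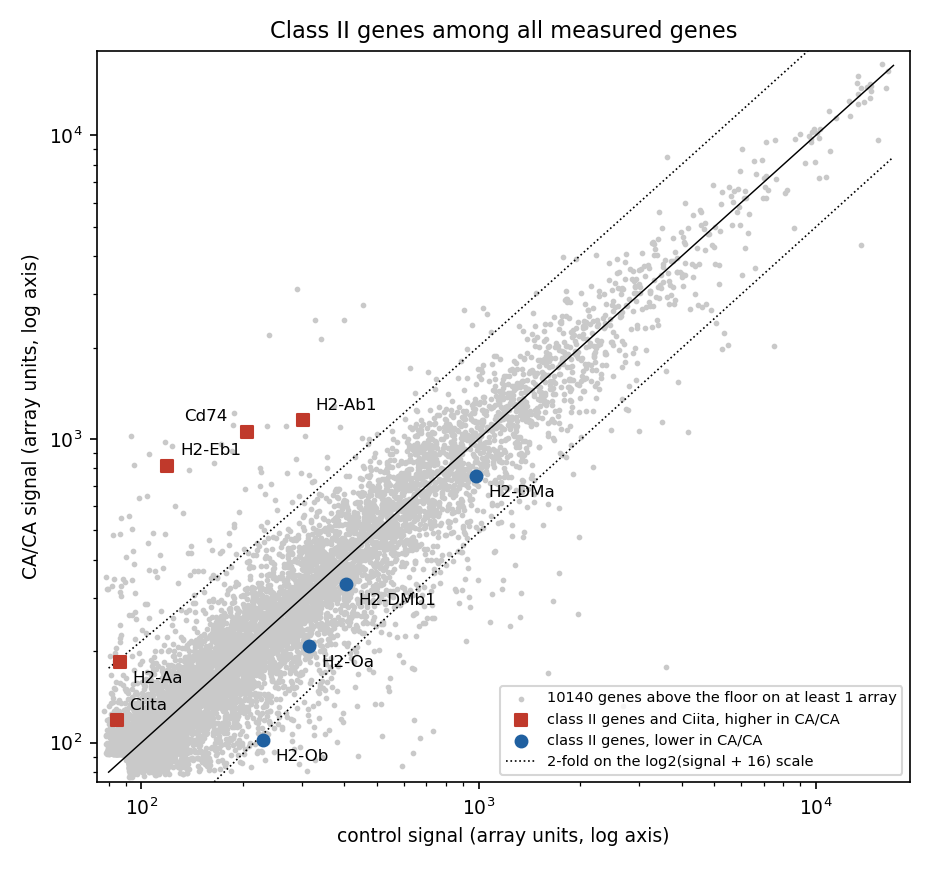
Signal of 10140 measured genes in the control (x axis) and in CA/CA (y axis), 1 array each, both axes logarithmic, with the line of equal signal and dotted lines at 2-fold on the log2(signal + 16) scale. H2-Eb1, H2-Ab1 and Cd74 lie above the upper dotted line and H2-Ob just below the lower one, while H2-DMa, H2-DMb1 and H2-Oa lie between the lines.

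The sign of the difference changed several times along the class II region of chromosome 17. In the order of the RefSeq annotation, 15 genes lie from H2-Oa to H2-Ea, 7 of them among the 9 genes studied. The stretch H2-Oa, Brd2, H2-DMa, H2-DMb2 and H2-DMb1 had differences from -0.56 to -0.06. The next 4 genes, which serve class I presentation, were all higher in CA/CA. Psmb9 and Psmb8, subunits of the immunoproteasome, differed by 0.75 and 0.41, and Tap1 and Tap2, the peptide transporter, by 0.86 and 0.49. H2-Ob followed at -1.05, directly beside H2-Ab1 at 1.87. The E beta gene copy H2-Eb2 and the E alpha gene H2-Ea, annotated as a transcribed pseudogene in the reference strain, were below the floor on both arrays. The H2-Ea probe had signals of 80.3 and 82.6, so RNA for the alpha chain that pairs with H2-Eb1 was not detected by this probe in either sample.

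**Figure D3:**
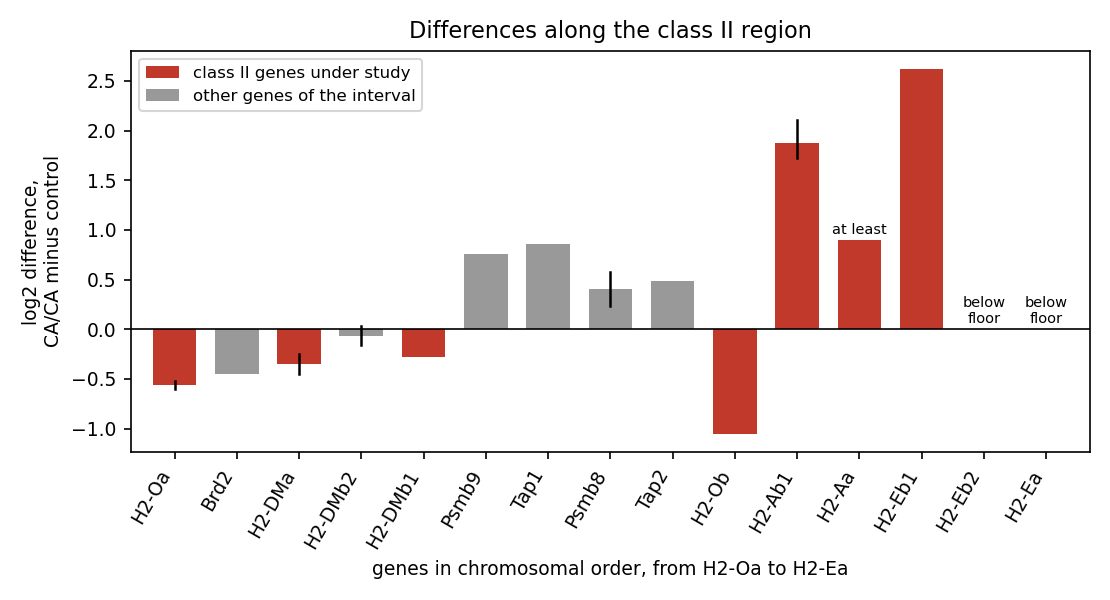
Log2 difference, CA/CA minus control, of the 15 genes from H2-Oa to H2-Ea in chromosomal order, with the genes studied in red and the others in grey. Bars are gene means, black lines span the lowest to the highest probe, H2-Aa is a lower bound, and H2-Eb2 and H2-Ea were below the floor on both arrays. H2-Ob at -1.05 stands directly beside H2-Ab1 at 1.87.

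The factors that bind class II promoters differed little between the samples. Of 11 such genes, 9 were measured and 0 were at least 2-fold different, with a median of -0.12 and a range from -0.42 to 0.08. Rfxap, a subunit of RFX, had signals of 400 and 365. Nfyb and Nfyc, subunits of the Y box factor NF-Y, differed by -0.01 and -0.28, and Smarca4, a chromatin remodelling ATPase, by -0.42. Rfxank, another RFX subunit, was dim, with 103 units (control) against 93.1 (CA/CA). With the background subtracted its control signal was 1.89 times that of CA/CA. For Creb1, also dim, the CA/CA signal was then 1.34 times that of the control. Rfx5, the DNA-binding subunit of RFX, and the co-activator gene Crebbp were below the floor on both arrays.

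Among 12 genes known to act on Ciita, Irf1 was higher in CA/CA and Irf2 and Irf4 were lower. Irf1, an interferon-induced factor that acts at the interferon gamma responsive promoter of Ciita, gave 554 units (control) against 1066 (CA/CA), and its 5 probes were all higher, by 0.65 to 1.14. Its mean difference of 0.90 was within 2-fold. Irf2, a relative of Irf1, was lower, at 1127 and 719, a difference of -0.64. Irf4, a lymphoid factor, gave 129 units on the control array and was not above the floor on the other, a bound of -0.42 with no limit to the size of the difference. The interferon gamma receptor genes Ifngr1 and Ifngr2 differed by -0.17 and 0.06, and Jak2, a kinase of that receptor, by 0.24. Socs1 and Prdm1, also among the 12 genes, were below the floor on both arrays. Of the 10 measured genes, 0 were past 2-fold, with Irf4 and Jak1 at their bounds, and the median was -0.12.

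Genes that supply class II molecules with peptide or act in their turnover differed in both directions. Ifi30, the lysosomal thiol reductase that unfolds antigens, gave 227 units (control) against 780 (CA/CA), and its 2 probes differed by 1.49 and 1.88. Sppl2a, the membrane protease that removes the last fragment of the invariant chain, was at 144 and 290, a difference of 0.93. Ctss, the protease that trims the invariant chain in antigen-presenting cells, gave 93.4 units in CA/CA, just over the floor, and was under it in the control. Ctsh, an aminopeptidase, was lower in CA/CA, at 638 and 263. Lgmn, the asparagine endopeptidase, was at 187 and 104. Cst3, an inhibitor of cysteine cathepsins, was at 2789 and 1496. The tetraspanin genes Cd63 and Cd82, whose proteins occur with class II molecules in endosomes, went opposite ways, with Cd63 at 1331 and 259 and Cd82 at 452 and 1007. Of 9 measured genes of 14, 2 passed 2-fold upwards and 2 downwards, and the median was 0.02. Marchf1, whose product removes surface class II in mouse dendritic and B cells, was below the floor on both arrays.

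Most co-stimulatory genes were dim. Icam1, an adhesion ligand for T cells, gave 273 units (control) against 505 (CA/CA), or 0.85 on the log2 scale. Cd86 was lower, at 139 and 93.3, a difference of -0.47, while Cd40 was at 90.3 and 104 and Cd80 was above the floor only in CA/CA, at 98.6. Of 8 measured genes of 10, 0 were past 2-fold, with 3 at their bounds, and the median was 0.06.

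Class I presentation genes and interferon-inducible GTPases were set beside the class II genes because interferon gamma is known to induce many genes of these groups. By gene mean, all 15 measured class I presentation genes had differences above 0, from 0.01 to 1.25, with a median of 0.57. Of all 10140 measured genes, 5164 were above 0. Erap1, at 0.01, passed the floor in CA/CA alone, which fixes its direction. The lowest probes of H2-T23 and Psme1 were below 0, at -0.08 and -0.14. Of the 15 genes, 2 reached 2-fold. These were Tapbp, the peptide-loading factor tapasin, at 1.25 and Psmb10, an immunoproteasome subunit, at 1.01. Their regulator Nlrc5, a relative of Ciita, was at 206 and 323, a difference of 0.61. Of 15 GTPase genes, 14 were on the array and 9 were measured. Iigp1, Gbp4, Gbp6, Gbp8 and Gbp9 were below the floor on both arrays. All 9 measured GTPases were above 0, from 0.92 to 2.57, with a median of 1.33, and 7 reached 2-fold. The immunity-related GTPase genes Igtp, Ifi47 and Irgm2 differed by 2.57, 1.77 and 1.33. The guanylate-binding protein genes Gbp2, Gbp3, Gbp5 and Gbp7 differed by 2.35, 1.74, 1.27 and 1.12. H2-Eb1 at 2.62 and H2-Ab1 at 1.87 lay above every class I gene measured, and no measured class I gene or GTPase had a difference as low as those of the 4 DM and DO genes. Most measured genes also lay above these 4. H2-DMb1, the highest of them, ranked 1622 of 10140 from the lowest difference. No test of a difference between these lists could be made with 1 array per genotype.

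**Figure D4:**
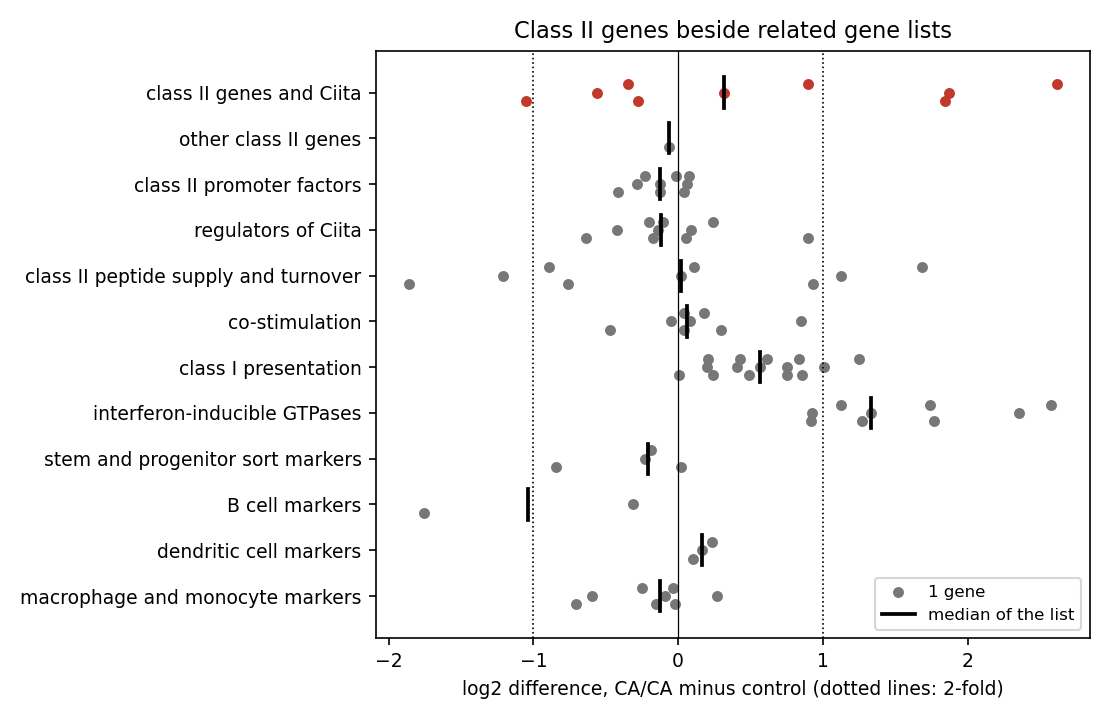
Log2 difference, CA/CA minus control, of each measured gene (points) in the 9 class II genes and Ciita (red) and in 11 related lists (grey), with list medians as black bars and dotted lines at 2-fold. Genes above the floor on 1 array only are at their bound. The class II genes fall on both sides of 0, from -1.05 to 2.62, while class I presentation genes lie from 0.01 to 1.25 and GTPases from 0.92 to 2.57.

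Markers of cells that carry class II in the adult were low on both arrays, with exceptions in each direction. In a bulk sample, fewer cells of a type and less RNA per cell cannot be told apart. Of 9 B cell markers, 7 were on the array and 2 were measured. Cd79b, a component of the B cell receptor that is already made in progenitors, was at 1174 and 321, and Blk, a B cell kinase, gave 119 units (control) and was under the floor in CA/CA. Blk passed the floor in the control alone, which fixes its direction. The summed signal of all 7, with every probe and no floor, was 1705 units (control) against 824 (CA/CA). Most of this fall was that of Cd79b alone, and much of the remaining signal was background. Of the 7, 4 were lower and 3 higher in CA/CA. Ms4a1, Cd22, Pax5, Fcer2a and Cr2, markers of the B lineage and of mature B cells, were below the floor on both arrays.

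Of 9 dendritic cell markers, 3 were measured, all above the floor only in CA/CA and dim. Zbtb46, the factor of classical dendritic cells, was at 112 there, Clec10a at 105 and Siglech, a marker of plasmacytoid dendritic cells, at 99.7. Passing the floor in CA/CA alone fixes the direction of these 3. The summed signal of all 9, with every probe and no floor, was 753 units (control) against 801 (CA/CA), much of it background. Itgax, Xcr1, Clec9a, Batf3, Cd209a and Ccr7 were below the floor on both arrays. Of 10 macrophage and monocyte markers, 8 were measured, 5 of them above the floor in the control alone, which fixes their direction. C1qb, a complement subunit of macrophages, gave 160 units (control) and was under the floor in CA/CA, and Csf1r, the receptor of their growth factor, was at 143 and 173. The summed signal of these 8, with every probe and no floor, was 943 units (control) against 786 (CA/CA), and 7 of the 8 were lower in CA/CA. These sums without a floor were chosen after seeing the data. The part of these cell types in the class II differences was not tested.

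Among markers of the sort itself, Kit was above the floor on both arrays, with 970 units (control) against 677 (CA/CA). Its 2 measured probes differed by -0.58 and 0.21 and so did not share a sign. Flt3, low by the sort, was below the floor on both arrays. Cd34 was lower in CA/CA, at 287 and 153, and Procr differed by 0.02. Of 8 such genes 4 were measured, with a median of -0.21.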

How the data were processed

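The values were the authors' deposited intensity values of the series' value table, with 1 column per sample headed by the sample's identifier. Per the submitters' processing notes they were made with BeadStudio. The version and the normalization method are not stated there. The values are linear, and the largest gap between their sorted columns was 0.0022 in log2 units, which quantile normalization would give. A further table had 4 value columns whose headings match no sample, and these were not used.

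The platform annotation gave 34885 probes 1 symbol, 18 several and 10378 none. The floor was the background mode, 81.69 (the middle of the shortest interval with 25% of values), plus 4 SD of the values below it, 2.56. On each array 37.1% of probes were above it. Differences were averaged over a gene's probes above the floor on at least 1 array. A gene above it on 1 array only was set against the lowest signal above the floor, 91.92, as a bound.

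The genes and lists were chosen with earlier results of these data known. The text names all 9 genes studied and, of each other list, the members beyond 2-fold and some with the next largest differences, plus others named for their role after values were seen. The steps were tested on simulated data, with changes planted only in genes that had a bright control probe. That test does not cover dim genes such as H2-Aa, H2-Eb1 and Ciita. The software was Python 3.11.15 (numpy 2.4.6, pandas 2.3.3) and, for normexp, limma 3.58.1 in R 4.3.3.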

Additional observations from a re-analysis of the deposited data

How the results depend on the processing

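The 9 genes kept the sign of their difference under all 9 alternatives of scale, background, floor and probe choice, 81 of 81 values. Most of these alternatives keep the order of a probe's 2 signals, and the probes of each gene shared a sign. The unchanged signs were thus largely fixed beforehand and give no support, so only the sizes are informative. H2-Eb1 ranged from 2.35 to 4.28, H2-Ab1 from 1.76 to 2.30, Cd74 from 1.71 to 2.84, H2-Aa from 0.73 to 3.33, Ciita from 0.25 to 1.84 and H2-Ob from -2.85 to -0.88. With the background mode subtracted, 5 of the 9 genes were at least 2-fold higher, with the offset kept and without it. H2-Aa and Ciita joined the 3 others. At an offset of 50, and at a 3-fold threshold, 0 genes were past the limit downwards. The median of the 9 genes was 1.01 with the mode subtracted, 1.84 with no offset as well (an alternative chosen after seeing the data) and 0.85 after normexp. In the same order the GTPase median was 2.18, 2.33 and 1.96, the B cell marker median -1.50, -1.92 and -1.42 and the dendritic cell marker median 0.58, 1.17 and 0.48. The macrophage and monocyte median was -0.43 and -0.86 with the mode subtracted, with and without the offset. With no offset as well, the co-stimulation median was 0.52 and that of the sort markers -0.73. Without a floor the GTPase median was 0.92 and the B cell marker median -0.036. At a floor of the mode plus 6 SD the median of peptide supply genes was -0.32. Over all genes, 131 were at least 2-fold higher and 166 lower, against 287 and 471 after normexp, 348 and 539 with the mode subtracted, and 700 and 955 with no offset as well. At 1.5-fold they were 406 and 570, and at 3-fold 53 and 35. Subtracting background widens differences of dim genes by construction. For the others the cause was not tested.

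No paired analysis was possible because each group has 1 sample, and leaving out a sample was not run for the same reason. Signals close to background limit the values of Ciita, H2-Aa, H2-Ob in CA/CA and most cell type markers.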
